A study of Mus musculus with 6 samples.

Results

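The genes described here encode 9 receptors and adhesion molecules that place B cells within lymphoid tissue: the chemokine receptors Ccr6, Ccr7, Cxcr4 and Cxcr5, the oxysterol receptor Gpr183, the integrin subunits Itgal, Itga4 and Itgb7, and the ephrin Efnb1. They were chosen by gene symbol, and every probe annotated to them on an Illumina bead array was taken, 17 probes of 9 of the 19057 genes named on the array. RNA came from splenic follicular B cells of 3 C57BL/6 mice homozygous for a floxed Yy1 gene (yy1 f/f), in which Cre recombinase can delete a segment of the gene for the zinc finger transcription factor YY1. Cells of each spleen were divided between TAT-CRE, a form of Cre protein able to enter cells through an attached peptide, and a mock treatment without Cre, which gave 3 TAT-CRE and 3 mock arrays, 1 of each per mouse. All cells carried the floxed alleles, had been selected with an antibody to CD23, and spent 72 hours in medium with LPS (lipopolysaccharide), IL4 (interleukin 4), OPI supplement and 20% serum. The ages and sexes of the mice were not used here, and no sample of non-floxed cells given TAT-CRE was analysed here, so the Cre protein and the loss of Yy1 cannot be told apart.

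Lymphocytes find their place by following gradients of ligands. CXCR5 draws B cells to CXCL13 in follicles, CCR7 to CCL19 and CCL21 at the border with the T cell zone, CXCR4 to CXCL12 in the dark zone of germinal centres, CCR6 to CCL20, and GPR183 (EBI2) to oxysterols at the outer follicle. Integrins then hold cells to vessels and to other cells: αL pairs with β2 to form LFA-1, which binds ICAM-1, and α4 pairs with β7 or β1 to bind MAdCAM-1 or VCAM-1. Ephrin B1 is a membrane ligand of EphB receptors that marks germinal centre B cells in mice. The study asked about Yy1 and antibody class switching, and its cells came from culture, not from a germinal centre.

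The probe of Yy1 itself read 153, 140.4 and 134 in TAT-CRE cells of mice 1, 2 and 3, against 455, 409 and 439 in mock cells, on the deposited intensity scale. No TAT-CRE array read it above background, so Yy1 was at least 2.49-fold lower, the mock mean taken against the lowest signals above background. On each array between 39.9% and 44.5% of probes lay above background, and the log2 values of arrays of a treatment correlated across probes at 0.989 to 0.990 for TAT-CRE and at 0.974 to 0.983 for mock. The median SD per probe was 0.154 in TAT-CRE and 0.234 in mock cells. Precision is limited by there being 3 arrays a treatment. In a bulk sample, fewer cells that express a gene and less RNA per cell cannot be told apart.

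In TAT-CRE cells Efnb1 was higher than in mock cells, while Itgal, Ccr7 and 1 of the Ccr6 probes were lower. Of the 17 probes, 14 passed the filter on dim probes, and all 9 genes had at least 1 of these. Of the 14, 1 was higher and 3 were lower at an adjusted p under 0.05 over all 19240 probes tested, where 13.7% of all probes tested were called, 6.55% as higher and 7.14% as lower. At the brightest tested probe of each gene, 1 of 9 was higher and 2 were lower, beside 7.42% higher and 7.51% lower among 9942 genes. The median log2 difference of the 9 genes was 0.16, against 0.02 over all genes, so there was no common direction. With no filter on dim probes the 3 lower probes did not pass (adjusted p between 0.116 and 0.181). The intensities of the treatments did not overlap for 9 of the 14 probes, 5 of them higher and 4 lower in TAT-CRE cells. Over all probes tested the treatments did not overlap for 31.8%, with 16.4% higher and 15.5% lower.

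**Figure D1:**
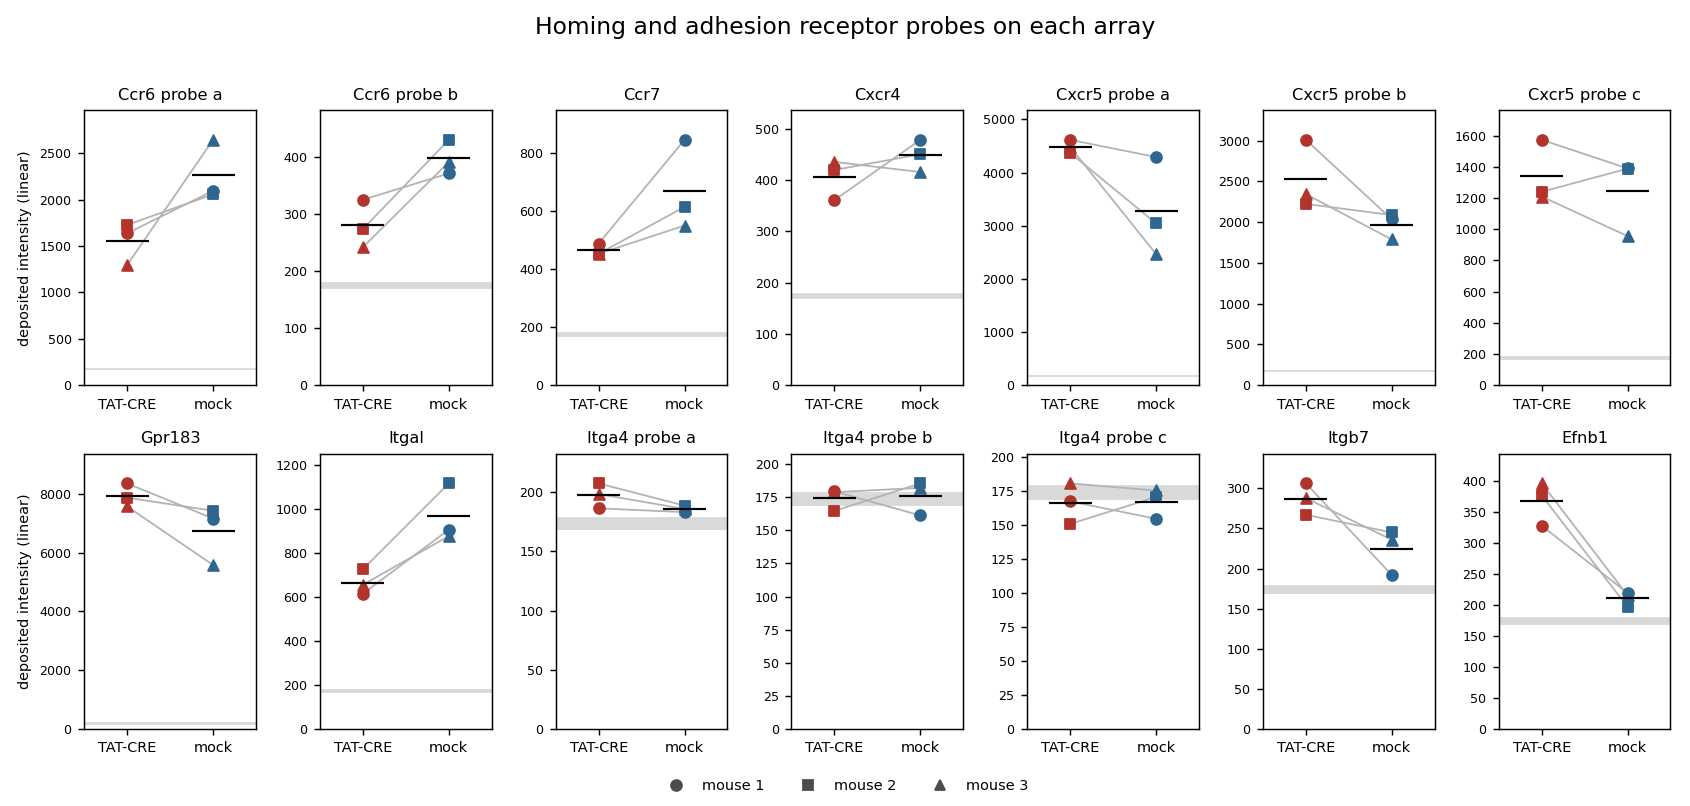
Deposited linear intensity of the 14 tested probes of the 9 genes on each array, with TAT-CRE cells at left and mock cells at right in each panel. Symbols mark mice 1, 2 and 3, grey lines join the cells of a mouse, black bars are means (n = 3), the grey band spans the background thresholds of the 6 arrays, and letters rank the probes of a gene by brightness. The Efnb1 points lie between 328 and 396 in TAT-CRE cells and between 196.5 and 219 in mock cells.

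Ccr7, the receptor that draws activated B cells towards the T cell zone, was lower in TAT-CRE cells. Its probe (ILMN_2821118) read 489, 453 and 453 in TAT-CRE cells of mice 1, 2 and 3, against 847, 615 and 551 in mock cells. All TAT-CRE arrays lay below all mock arrays, and the highest reading was that of mock 1, while the TAT-CRE readings lay close together. The log2 difference was -0.60 ± 0.19 (SE; 95% confidence interval -1.00 to -0.20, limma adjusted p = 0.0427), a 1.52-fold fall. The call was lost with the mouse left out of the model (adjusted p = 0.0662) and without mouse 1 (-0.44, adjusted p = 0.268) or mouse 3 (-0.73, adjusted p = 0.0754). In fits without the mouse it was also lost without any single array other than mock 3, and without mock 1 the difference was -0.40 (adjusted p = 0.154).

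Ccr6, whose ligand CCL20 is made at epithelial and inflamed sites, had lower readings in TAT-CRE cells at each of its probes, and 1 of the probes passed. The brighter probe (ILMN_2888448) read 1636, 1727 and 1294 in TAT-CRE cells of mice 1, 2 and 3, against 2095, 2056 and 2644 in mock cells. The dimmer probe (ILMN_2639012) read 324.5, 273 and 241 in TAT-CRE cells, against 371, 429 and 390.5 in mock cells. The treatments did not overlap at either probe, and at the brighter probe the gap was widest in mouse 3. The dimmer probe fell by 0.72 on the log2 scale (SE 0.20, interval -1.14 to -0.31, limma adjusted p = 0.0210), with differences of -0.26, -0.90 and -1.00 in mice 1, 2 and 3. The brighter probe differed by -0.58 ± 0.20 (SE; interval -1.00 to -0.15, limma adjusted p = 0.0667), so the intervals of the probes overlap widely. The call of the dimmer probe was lost without mouse 3 (-0.58, adjusted p = 0.194) and, in fits without the mouse, without TAT-CRE 2, TAT-CRE 3, mock 2 or mock 3 (adjusted p between 0.0705 and 0.141). That of the brighter probe was gained without mouse 2 (-0.73, adjusted p = 0.0177), with array weights (-0.72, adjusted p = 0.0142), and with no background correction, offset 50, 1 probe per gene, or trend and robust variance (adjusted p between 0.0365 and 0.0465). The other 14 of 20 alternatives did not call the brighter probe. Its difference was -0.32 without mouse 3 (adjusted p = 0.569) and, in a fit without the mouse, -0.44 without TAT-CRE 3 (adjusted p = 0.252).

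Cxcr5, the receptor that keeps B cells in follicles, had higher means in TAT-CRE cells at all 3 of its probes, and none passed. The brightest probe (ILMN_2990494) read 4615, 4372 and 4482 in TAT-CRE cells of mice 1, 2 and 3, against 4292, 3042 and 2467 in mock cells. The TAT-CRE readings lay within a narrow range and mock cells of mouse 1 came close to them. The log2 difference there was 0.51 ± 0.20 (SE; interval 0.10 to 0.92, limma adjusted p = 0.0966). It was 0.71 without mouse 1 (adjusted p = 0.0363), and 0.73 without mock 1 in a fit without the mouse (adjusted p = 0.0218). With all arrays kept, this probe passed with array weights (0.6, adjusted p = 0.0323) and with trend and robust variance (0.51, adjusted p = 0.0477). The other 16 of 20 alternatives did not call it. Its difference was 0.32 without mouse 3 (adjusted p = 0.567) and, in a fit without the mouse, 0.32 without mock 3 (adjusted p = 0.361). The second probe (ILMN_2990502) read 3012, 2224.5 and 2345 in TAT-CRE cells, against 2035, 2087.5 and 1788 in mock cells, with a difference of 0.36 ± 0.19 (limma adjusted p = 0.220). The dimmest (ILMN_1219316) read 1574, 1240.5 and 1210.0 in TAT-CRE cells, against 1391, 1389 and 956 in mock cells, which overlap, and differed by 0.13 ± 0.19 (limma adjusted p = 0.715).

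Cxcr4, the receptor for CXCL12, showed no difference that could be told from the spread between mice. Its probe (ILMN_2630459) read 361, 420 and 435 in TAT-CRE cells of mice 1, 2 and 3, against 478, 450 and 416 in mock cells. Mice 1 and 2 were lower in TAT-CRE cells and mouse 3 was slightly higher. The log2 difference was -0.19 ± 0.19 (SE; limma adjusted p = 0.571), and its interval ran from -0.59 to 0.21.

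Gpr183, which guides activated B cells to the outer follicle, did not pass either. Its probe (ILMN_1220101) read 8364, 7877 and 7578 in TAT-CRE cells of mice 1, 2 and 3, against 7167, 7431 and 5583 in mock cells. All TAT-CRE arrays lay above all mock arrays, narrowly in mouse 2. The log2 difference was 0.25 ± 0.18 (SE; interval -0.13 to 0.64, limma adjusted p = 0.407), and no alternative setting called it (adjusted p between 0.243 and 0.820).

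Itgal, the αL subunit of LFA-1, was lower in TAT-CRE cells of each mouse. Its probe (ILMN_2696629) read 615, 726.5 and 656 in TAT-CRE cells of mice 1, 2 and 3, against 907, 1118 and 878 in mock cells. No TAT-CRE array reached the lowest mock array, and the paired log2 differences of -0.64, -0.69 and -0.48 were close to each other. The fitted difference was -0.60 ± 0.18 (SE; interval -0.99 to -0.22, limma adjusted p = 0.0343), a 1.52-fold fall. The call was lost without mouse 1, 2 or 3 (adjusted p = 0.103, 0.0907 and 0.117), while the difference stayed between -0.67 and -0.56. In fits without the mouse it was lost without any single array other than mock 1 (adjusted p between 0.0568 and 0.154).

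The partner subunit of αL and the ligand of LFA-1 had lower means in the same cells without passing. Itgb2, the β2 subunit, read 504, 515 and 576 in TAT-CRE cells of mice 1, 2 and 3, against 678, 796 and 615.5 in mock cells. These did not overlap, and the log2 difference was -0.45 ± 0.19 (SE; limma adjusted p = 0.130). Icam1, which encodes the ligand of LFA-1, read 1737, 1518.5 and 1477 in TAT-CRE cells, against 2779, 2141 and 1796 in mock cells, with a difference of -0.51 ± 0.18 (limma adjusted p = 0.0769).

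Itga4, the α4 subunit, was read only near background. Its brightest probe (ILMN_1232028) read 186.5, 208 and 199 in TAT-CRE cells of mice 1, 2 and 3, against 183, 189 and 186.0 in mock cells. The background thresholds of the arrays lay between 169 and 178, so this probe was barely above them on each array. It differed by 0.16 ± 0.18 (SE; limma adjusted p = 0.614). Of the other probes, ILMN_1251003 was above background on 4 of 6 arrays and differed by -0.03 ± 0.19 (limma adjusted p = 0.949), and ILMN_1245348 was above it on 3 and differed by -0.02 ± 0.19 (limma adjusted p = 0.960). The remaining 3 of its 6 probes read between 123 and 181 and were not tested.

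Itgb7, the β7 subunit that pairs with α4 or αE for homing to mucosal tissue, had higher readings in TAT-CRE cells of each mouse but did not pass. Its probe (ILMN_1227434) read 306, 267 and 288 in TAT-CRE cells of mice 1, 2 and 3, against 192, 245 and 236 in mock cells. The treatments did not overlap, and the gap was widest in mouse 1, whose mock array was the lowest. The log2 difference was 0.58 ± 0.20 (SE; interval 0.15 to 1.01, limma adjusted p = 0.0663). It passed without mouse 2 (0.78, adjusted p = 0.0103) and, in a fit without the mouse, without mock 2 (0.70, adjusted p = 0.0496). With all arrays kept it passed with 1 probe per gene (0.58, adjusted p = 0.0459) and with array weights (0.57, adjusted p = 0.0455). The other 16 of 20 alternatives did not call it. Its difference was 0.32 without mouse 1 (adjusted p = 0.471) and 0.36 with no background correction (adjusted p = 0.118). Itgae, the αE partner, was read at 173, 181 and 184 in TAT-CRE cells, against 152, 169 and 185 in mock cells, close to background (0.21 ± 0.19, limma adjusted p = 0.502). Itgb1, the other β partner of α4, read 223, 237 and 213 in TAT-CRE cells and 264, 205.5 and 253 in mock cells (-0.15 ± 0.20, limma adjusted p = 0.672).

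Efnb1 showed the largest difference of the 9 genes. Its probe (ILMN_2698443) read 328, 377 and 396 in TAT-CRE cells of mice 1, 2 and 3, against 219, 196.5 and 215 in mock cells. The means were 367 ± 35.2 in TAT-CRE and 210.2 ± 12.0 in mock cells (SD, n = 3 each), and the lowest TAT-CRE array lay well above the highest mock array. The log2 difference was 1.22 ± 0.19 (SE; interval 0.82 to 1.62, limma adjusted p = 0.000388), a 2.33-fold rise after background correction, with 0.89, 1.45 and 1.31 in mice 1, 2 and 3. It ranked 137 of 19240 probes by the size of the rise. It passed under all 20 alternative settings tried, with differences between 0.80 and 1.38 and adjusted p up to 0.00769. The lowest of these, 0.80, came with no background correction.

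**Figure D2:**
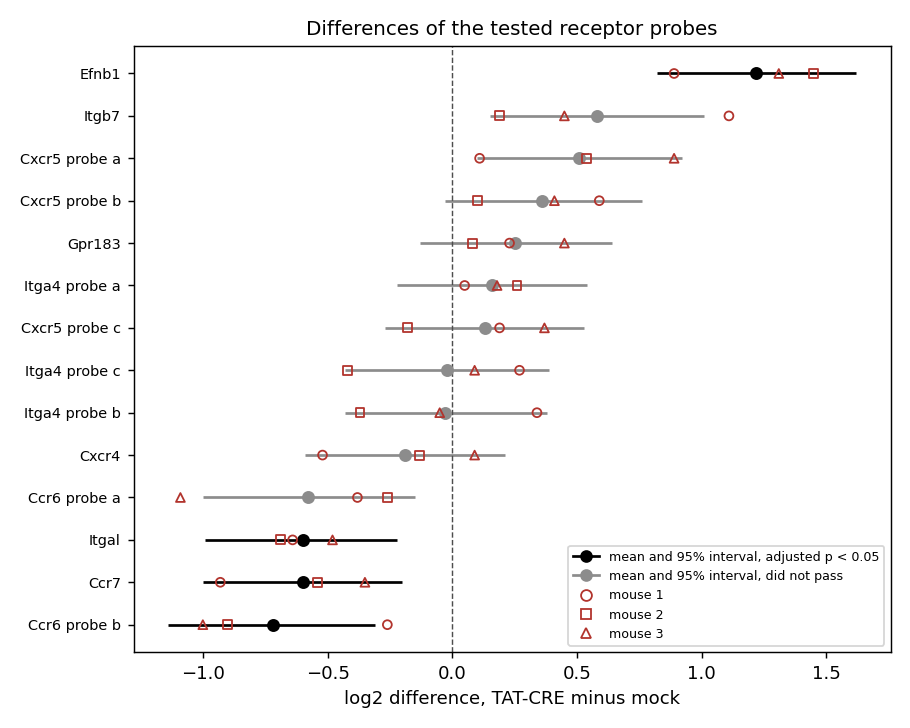
Log2 difference, TAT-CRE minus mock, of the 14 tested probes of the 9 genes, ordered by size. Filled points and bars are the fitted mean and 95% confidence interval, in black for the 4 probes with an adjusted p under 0.05 and grey for the others, and open symbols are the differences within each mouse. The 3 mice lie on the same side of 0 for all probes but those of Cxcr4, the dimmest Cxcr5 probe and the Itga4 probes b and c.

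The bases ahead of the annotated starts of Efnb1, the gene with the clearest change, and of Ccr6, whose probes were lower, are shown because the treatment removes a promoter-binding factor. They come from RefSeq on GRCm38.p6 and run 5′ to 3′ on the gene's strand, 250 bases up to the start, with motif matches in capitals. The windows are chrX:99135811-99136060 (plus strand) for Efnb1, and chr17:8235793-8236042 and chr17:8242276-8242525 (plus strand) for the annotated starts of Ccr6.
Efnb1: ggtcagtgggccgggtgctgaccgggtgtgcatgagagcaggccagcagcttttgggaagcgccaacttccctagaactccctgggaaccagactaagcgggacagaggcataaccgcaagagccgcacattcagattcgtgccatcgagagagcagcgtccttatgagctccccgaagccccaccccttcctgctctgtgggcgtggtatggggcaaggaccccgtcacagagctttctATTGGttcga
Ccr6 first start: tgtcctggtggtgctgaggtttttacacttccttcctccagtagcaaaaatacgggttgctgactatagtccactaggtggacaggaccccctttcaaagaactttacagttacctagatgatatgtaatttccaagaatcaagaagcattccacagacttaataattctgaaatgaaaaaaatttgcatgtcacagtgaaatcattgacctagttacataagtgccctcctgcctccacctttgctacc
Ccr6 second start: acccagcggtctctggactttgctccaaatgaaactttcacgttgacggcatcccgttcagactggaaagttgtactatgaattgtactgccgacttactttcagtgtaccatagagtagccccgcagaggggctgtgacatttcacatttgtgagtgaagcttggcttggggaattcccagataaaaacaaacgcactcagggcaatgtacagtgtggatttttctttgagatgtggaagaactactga
The motifs searched on each strand were the YY1 core CCATNTT (found in 12.4% of 32851 such windows of all genes), the GC box GGGCGG (32.7%), CCAAT (33.8%) and TATAAA (12.4%). The Efnb1 window held 1 match, ATTGG, the reverse complement of CCAAT, from 10 to 6 bases before the start. The Ccr6 windows held none. Windows were found for 6 of the 9 genes, and none of their 7 windows held the YY1 core. Ccr7, Cxcr5 and Itgal had no window and were not searched, nor were bases after the start of any gene. That of Cxcr4 held 3 GC boxes and overlapping TATA matches in either orientation, and that of Itga4 1 GC box. These are matches of letters and say nothing of binding.

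Related genes gave the setting for these values. In 7 lists of other positioning receptors, ligands, integrins, adhesion molecules and signalling genes, 113 genes were tested, of which 12 were higher and 7 lower in TAT-CRE cells. Their median log2 difference was 0.00, against 0.02 over all genes, where 14.9% were called. Without the filter on dim probes 12 of the 19 calls were lost, all but those of Gpr174, S1pr2, Rassf5, Esam, Alcam, Pik3cg and Gng10. The counts also moved when an array or mouse was left out, and that range is given with each list.

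Among other receptors that position lymphocytes, 2 of 13 rose and 2 fell (median 0.09; 1 to 2 higher and 1 to 3 lower with an array or mouse left out). Gpr174, a receptor for lysophosphatidylserine, read 316, 316.5 and 292 in TAT-CRE cells of mice 1, 2 and 3, against 577, 500 and 573 in mock cells. It fell by 1.08 (SE 0.18, limma adjusted p = 0.000834), and a second probe fell by 0.92. S1pr2, the sphingosine 1-phosphate receptor that holds B cells in germinal centres, read 613, 621 and 543 in TAT-CRE cells, against 345.5, 357 and 365 in mock cells. It rose by 0.92 (SE 0.18, limma adjusted p = 0.00284), while a second, dimmer probe differed by 0.00. P2ry14, a receptor for UDP sugars, fell by 0.77 (limma adjusted p = 0.0209), a call lost without mouse 3 or without each array but mock 1 (adjusted p up to 0.219), and with no background correction (-0.48, adjusted p = 0.0549). S1pr5, the other gene counted as higher, was at its tested probe above background on all TAT-CRE and no mock arrays and at least 1.14-fold higher in TAT-CRE cells. It met the filter only through the TAT-CRE arrays, so its place in the count is not support for a change. Its difference was 0.65, against 0.31 with no background correction and 0.46 with offset 50. A second S1pr5 probe, above background on 1 mock array only and not tested, went the other way. It read 138, 130 and 133 in TAT-CRE cells of mice 1, 2 and 3, against 148, 181 and 158 in mock cells. The probes of S1pr1 and Ackr3 were not above background on any array.

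Of ligands and the enzymes that make them, 1 of 10 rose and 1 fell (median -0.05; 1 to 2 higher and 0 to 1 lower with an array or mouse left out). Ccl22, a ligand of CCR4, read 209, 225 and 228 in TAT-CRE cells of mice 1, 2 and 3, against 162, 159 and 175 in mock cells, of which 1 was above background. Its difference was 0.82 (SE 0.18, limma adjusted p = 0.00641), against 0.42 with no background correction (adjusted p = 0.0455). With 1 mock array above background, Ccl22 met the filter through the TAT-CRE arrays, so its place in the count is not support for a change. Ccl5, a chemokine of T cells and other leukocytes, fell by 0.74 (SE 0.22, limma adjusted p = 0.0306), with -1.06, -0.03 and -1.13 in the 3 mice, and the call was lost without mouse 1, mouse 3 or each array but mock 2 (adjusted p up to 0.233). The probes of Ch25h and Cyp7b1, enzymes of the oxysterol ligand of GPR183, were not above background on any array.

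Of 10 other integrin subunits, 3 rose and none fell, beside 7.42% higher and 7.51% lower over all genes. The median was 0.15, with 1 to 3 higher and 0 to 1 lower with an array or mouse left out. The 7 not called were mixed in sign. Itgb2, Itga6, Itga8 and Itgb1 differed by -0.45, -0.36, -0.26 and -0.15, and Itgad, Itgae and Itgb5 by 0.09, 0.21 and 0.22. Itgal, described above, was lower. Itgav, the αV subunit, read 456, 503 and 546 in TAT-CRE cells of mice 1, 2 and 3, against 365.5, 324 and 360 in mock cells, and rose by 0.67 (SE 0.19, limma adjusted p = 0.0228), while its dimmer probes differed by 0.28 and -0.11 and did not pass. Itga3, a laminin receptor subunit, rose by 0.87 (SE 0.23, limma adjusted p = 0.0199), with 1.14, 1.44 and 0.02 in the 3 mice. Itgb4 was above background on all TAT-CRE and no mock arrays and was at least 1.06-fold higher in TAT-CRE cells. It too met the filter only through the TAT-CRE arrays, and its place in the count is not support for a change. Beside the fit with no filter, calls were lost for Itgav without mouse 2, mouse 3, TAT-CRE 2 or TAT-CRE 3 (adjusted p up to 0.155), and for Itga3 without mouse 2 or any single array other than TAT-CRE 3 (up to 0.188), with no background correction (0.57, adjusted p = 0.0536) and with array weights (0.63, adjusted p = 0.0611). The Itgb4 difference was 0.81, against 0.34 with no background correction.

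Among 22 genes of integrin activation, 1 rose and 1 fell (median -0.11; 0 higher and 1 to 2 lower with an array or mouse left out). Rassf5 (RAPL), which links active Rap1 to LFA-1, read 1250, 1247 and 1204.5 in TAT-CRE cells of mice 1, 2 and 3, against 2781, 2987 and 2575 in mock cells. It fell by 1.23 (SE 0.18, limma adjusted p = 0.000238), a 2.35-fold fall that passed under all 20 alternatives. A second, dimmer Rassf5 probe was above background on 1 array per treatment and was not tested. It read 149, 194 and 171 in TAT-CRE cells, against 205, 162.5 and 152.5 in mock cells. Sharpin, an inhibitor of integrin activation, rose by 0.59 (SE 0.18, limma adjusted p = 0.0366), but the call was lost without any 1 mouse or any 1 array (adjusted p up to 0.177). The talin gene Tln1 and the kindlin gene Fermt3, which open integrins, differed by -0.27 and -0.54 (limma adjusted p = 0.373 and 0.107).

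Among 22 other adhesion molecules, 2 rose and 1 fell (median 0.02; 1 to 3 higher and 1 to 3 lower with an array or mouse left out). Esam, an immunoglobulin family molecule of cell junctions, read 721, 715 and 772 in TAT-CRE cells of mice 1, 2 and 3, against 215.5, 214 and 247 in mock cells. Its difference of 2.28 ± 0.18 (SE; limma adjusted p = 8.98e-07) exceeded that of each of the 9 homing genes. Alcam, which binds CD6, fell by 0.95 (SE 0.20, limma adjusted p = 0.00431). Selplg (PSGL-1), a selectin ligand, rose by 0.67 (SE 0.18, limma adjusted p = 0.0196), while its dimmer probe differed by 0.39 and did not pass, and the call was lost without mouse 3, any TAT-CRE array or mock 3 (adjusted p up to 0.143). Cd44, a receptor for hyaluronan, differed by -0.21 ± 0.20 (limma adjusted p = 0.545).

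Downstream of the chemokine receptors, 2 of 32 signalling genes rose and 2 fell (median 0.01; 2 to 4 higher and 1 to 2 lower with an array or mouse left out). Pik3cg, the PI3 kinase that G protein βγ subunits activate, read 1045, 1526 and 1312 in TAT-CRE cells of mice 1, 2 and 3, against 455, 553 and 645 in mock cells. It rose by 1.39 (SE 0.19, limma adjusted p = 0.000103), and its second probe by 1.29. Gng10, a γ subunit, fell by 1.19 (SE 0.19, limma adjusted p = 0.000436), and its second probe by 1.01. Rgs14, which shortens G protein signals, rose by 0.82 (SE 0.19, limma adjusted p = 0.00769). Gnb1, a β subunit, fell by 0.63 (SE 0.20, limma adjusted p = 0.0494), a call lost with the mouse left out of the model (adjusted p = 0.114) and without mouse 2, mouse 3 or any 1 array (up to 0.339). Gnai2, the main inhibitory α subunit in lymphocytes, and Rgs1, a brake on chemokine signals in B cells, differed by -0.20 ± 0.20 and -0.13 ± 0.19 (limma adjusted p = 0.552 and 0.717).

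Of other ephrins and Eph receptors, 4 of 21 were tested, and 1 rose (0 to 1 with an array or mouse left out). Efna5 read 222, 213 and 204 in TAT-CRE cells of mice 1, 2 and 3, against 177, 158 and 180.3 in mock cells, of which 1 was above background. The difference of 0.61 ± 0.19 (limma adjusted p = 0.0386) passed in 8 of 19 alternatives and was lost with no background correction (0.31), with offset 50 (0.45) and without any 1 mouse or each array but mock 1 (adjusted p up to 0.170). With 1 mock array above background, Efna5 met the filter through the TAT-CRE arrays, so its place in the count is not support for a change. The probes of Ephb1 were not above background on any array, and those of Ephb4, another Eph receptor, on at most 1 array per treatment.

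**Figure D3:**
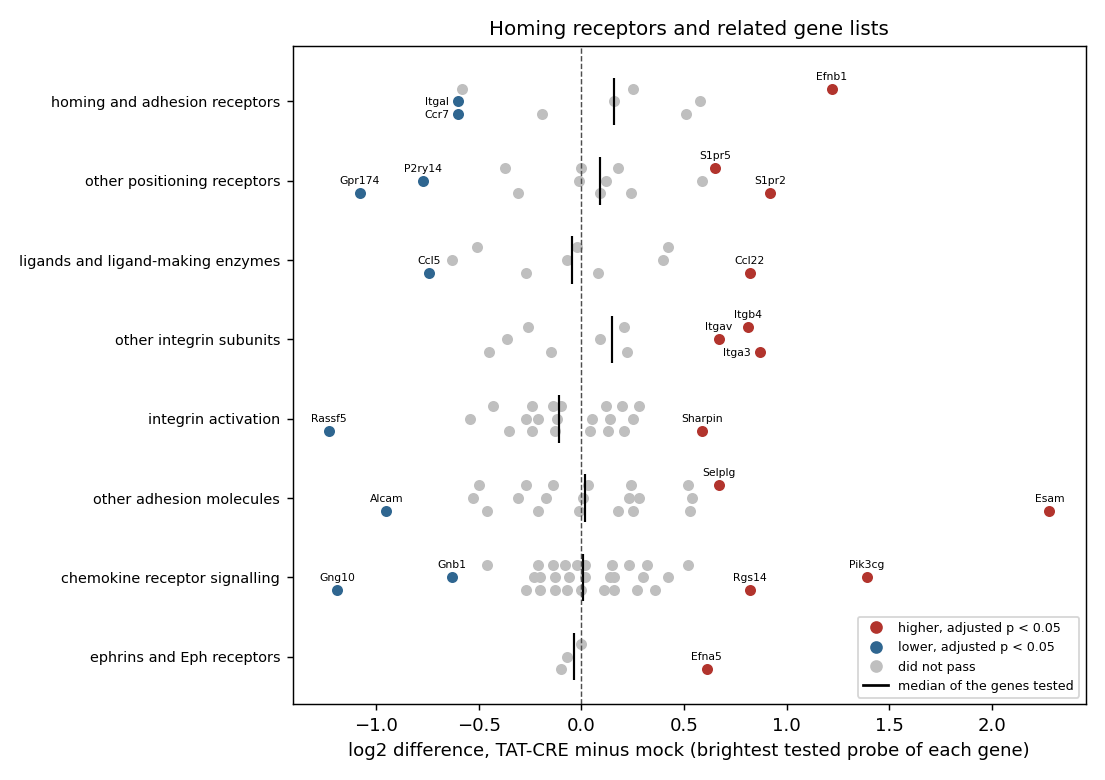
Log2 difference, TAT-CRE minus mock, at the brightest tested probe of each gene, for the 9 homing and adhesion genes (top row) and the 7 related lists. Red points were higher and blue points lower at an adjusted p under 0.05, grey points did not pass, black ticks are medians, and the vertical spread of points has no meaning. Efnb1 stands at 1.22, and each list has its median near 0.

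Over the 6 arrays, the genes whose log2 values ran most like Efnb1 were Gm5512 (Pearson r = 0.997), Tesk1 (0.996) and Map7d1 (0.996). Those most like Itgal were Tmem248 (0.996), Ptcd2 (0.993) and Tomm40 (0.993). Each r takes in the difference between treatments as well as that between mice.

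The label of follicular B cells was checked by markers. Fcer2a, which encodes CD23, averaged 8182 ± 546 in TAT-CRE and 9814 ± 1788.5 in mock cells (SD, n = 3 each). Cd22, Cd79b, Cd74, Ms4a1 and Ebf1 were above background on every array, while the CD21 gene Cr2 was on none. Blnk, an adaptor of the B cell receptor, fell by 0.67 (limma adjusted p = 0.0279). Cd79b and Ms4a1 had higher means without passing (0.52 and 0.51, limma adjusted p = 0.0737 and 0.088). Cd22, Cd74, Fcer2a and Ebf1 differed by 0.15, -0.02, -0.25 and -0.09 (limma adjusted p between 0.415 and 0.962). Of 9 T cell markers with a probe, Cd3d, Cd3e, Cd3g and Cd8a were not above background on any array, whereas Thy1 averaged 5290 in TAT-CRE and 5859 in mock cells and Cd8b1 4904 in TAT-CRE and 4114 in mock cells. None of the 4 tested T cell markers passed, and their list summed to between 10237 and 12302 in TAT-CRE and between 9707 and 12430 in mock cells. Among markers of dendritic cells 1 of 6 rose, Siglech (1.16, limma adjusted p = 0.000534), while Itgax, Flt3 and Xcr1 were not above background on any array. Zbtb46, the other dendritic cell marker tested, had a lower mean in TAT-CRE cells without passing (-0.42, limma adjusted p = 0.15). The summed intensity of that list ran from 1768 to 1927 in TAT-CRE and from 1331 to 1519 in mock cells. Among 5 natural killer cell markers 1 rose, Prf1 (1.51, limma adjusted p = 5.59e-05), with Ncr1, Klrb1c and Klrk1 not above background on any array and sums from 8215 to 9337 in TAT-CRE and from 2874 to 4539 in mock cells. Of 6 plasma cell markers 1 rose, Jchain (0.64, limma adjusted p = 0.0383). The others tested, Irf4, Prdm1 and Xbp1, differed by -0.55, -0.14 and 0.16 without passing (limma adjusted p = 0.0818, 0.666 and 0.616). No marker of monocytes, neutrophils, erythroid cells or stroma passed, but few were bright enough to test. Of those with a probe, 2 of 7, 1 of 5, 1 of 3 and 1 of 6 were tested, in that order. The part of these markers in the results was not tested.

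**Figure D4:**
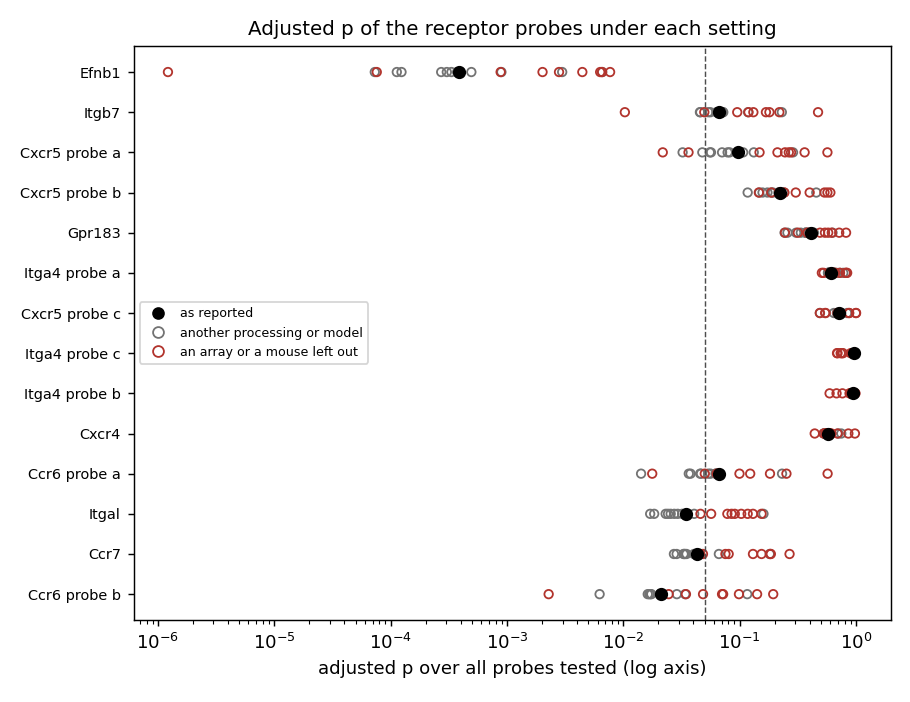
Adjusted p over all probes tested (log axis) of the 14 probes under each setting. Filled points are the values reported, grey open points other processing or models, and red open points fits without an array or a mouse, with a dashed line at 0.05. All Efnb1 points lie left of the line, while those of Itgal, Ccr7 and the dimmer Ccr6 probe lie on either side.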

How the data were processed

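The authors measured 6 Illumina BeadChip arrays, 1 per sample. The deposited table holds linear intensities for 45281 probes, produced with GenomeStudio 1.8 per the submitters' processing notes. Its sorted columns differ by at most 2.1 and its medians are 161.4 to 161.5, so the deposited intensities were already quantile normalized and not background-subtracted. A second table's 12 columns match no sample's labels and were not used.

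Groups came from the titles. The values were background-corrected (normexp, offset 16), quantile normalized and put on the log2 scale in limma 3.58.1 (R 4.3.3). Background was the 95th percentile, per array, of 1504 olfactory and vomeronasal receptor probes, and the 19240 probes above it on at least 3 of 6 arrays were tested. Probe genes came from GEO's platform annotation, with 34885 probes of 1 gene, 18 of several and 10378 of none. Entrez identifiers matched to RefSeq (GRCm38.p6) changed 0 symbols, and 3 listed names were updated through synonyms.

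The treatments were compared with lmFit and eBayes, the mouse as a block, in two-sided tests whose p-values were adjusted by the Benjamini-Hochberg method across the probes tested, at a threshold of 0.05. The pairing comes from the design, which divides each spleen, and deviations of the arrays of a mouse from their group means correlated across probes at 0.119, 0.0255 and 0.0539. Named were all probes of the 9 genes, Yy1, up to 6 called genes per list with the smallest p, fixed partner genes, and the 3 genes most correlated with Efnb1 and with Itgal. Fermt3 and Tln1 were named after their values were seen. Yy1, S1pr5 and Itgb4 folds written "at least" use deposited intensities against the lowest signal above background. The genes and lists were chosen with earlier results of these data known. The procedure was tested on simulated data. Promoter windows were searched in Python 3.11.15, and figures drawn with matplotlib 3.10.9. Alternatives covered background, normalization, filter, model and each array or mouse left out.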

Additional observations from a re-analysis of the deposited data

How the results depend on the processing

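With no replicate block, that is, without the mouse in the model, 1 of the 9 genes was lower in place of 2, because Ccr7 was lost, and all probes gave 1186 higher and 1231 lower in place of 1261 and 1374. No other call of the 9 genes changed with it. Probes of the 9 genes called higher numbered 2 with 1 probe per gene, 2 with trend and robust variance and 3 with array weights, in place of 1, and the same counts held by gene. With no filter on dim probes none was lower (0 in place of 3 probes and of 2 genes) and all probes gave 497 and 585. The lower probes numbered 4 and the lower genes 3, with the brighter Ccr6 probe added, with no background correction, offset 50, trend and robust variance and array weights. With 1 probe per gene only the brightest tested probe of each of 9942 genes was fitted. There 887 genes were lower, against 747 at the same probes in the main fit, and 3 of the 9 genes were lower. With an array or a mouse left out, the probes of the 9 genes gave 1 to 2 higher and 0 to 3 lower, their genes 1 to 2 and 0 to 2, and all probes 555 to 1248 and 610 to 1349. Efnb1 was higher in all of these fits. With a mouse left out, all tested probes of the 9 genes shared a common SE, so passing there followed the size of the difference only. Signs turned only for probes that never passed. The dimmest Cxcr5 probe ran from -0.07 to 0.28 with an array or mouse left out, and stood at 0.00 without TAT-CRE 1 and -0.07 without mock 3. The Itga4 probe ILMN_1245348 ran from -0.17 to 0.18 with an array or mouse left out, and stood at 0.02 with array weights, 0.18 without mouse 2, 0.14 without TAT-CRE 2, 0.02 without mock 2 and 0.06 without mock 3, and ILMN_1251003 (-0.21 to 0.14) at 0.14, 0.06, 0.05 and 0.03 in the last 4 of these. The cause was not tested. Signals near background limit Itga4, S1pr5, Itgb4, Efna5 and Ccl22.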
